A study of Homo sapiens with 18 samples.

Results

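Interferon-stimulated genes and the cytosolic sensors of DNA and RNA were followed in C4-2B cells, an androgen receptor-positive, castration-resistant prostate cancer line, by bulk RNA-Seq of polyadenylated RNA. The 46 genes were taken from a list of names (older symbols TMEM173 for STING, MB21D1 for cGAS and DDX58 for RIG-I) out of 22136 genes in the 2-day count table and 21276 in the 7-day table. The list held 13 effectors that bind or modify RNA or nucleotides, 10 restriction factors, 8 other induced genes, 5 sensors, 4 transcription factors, 4 genes of the ISG15 system and 2 secreted proteins, and all 46 had a row in both count tables.

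The study asked how VIC-1911, an inhibitor of the mitotic kinase AURKA, changes gene expression in prostate cancer cells, and whether it adds to olaparib, an inhibitor of PARP. All libraries came from 1 cell line, labelled as WT in genotype. By their labels the groups differed in drug and time, and some also differ in the run of library numbers (below). After 2 days there were 3 libraries with DMSO as vehicle and 3 with 0.1 µM VIC-1911. After 7 days there were 3 libraries each of vehicle, 0.1 µM VIC-1911, 1 µM olaparib, and both drugs at those doses. The labels do not say whether the 3 libraries of a group came from separate cultures, so the p-values measure the spread between these libraries, which may be technical.

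Type I and type III interferons signal through JAK kinases to a complex that includes STAT2 and IRF9 and binds the interferon-stimulated response element (ISRE) in the promoters of its target genes, while interferon gamma acts at the gamma-activated site (GAS). The sensor cGAS detects DNA in the cytosol and signals through STING, and RIG-I and MDA5 (IFIH1) detect double-stranded RNA and signal through MAVS. Both routes lead to TBK1 and IRF3 and to the production of interferon, and several of the genes can also be induced by IRF3 or IRF1 directly.

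Promoter stretches are shown for members whose results are described here, so that the response element can be seen beside the values. They were taken from RefSeq (GRCh38.p14) and are written 5′ to 3′ on the strand of the gene, upstream of the RefSeq start site, with the ISRE core TTTCNNTTTC (read on either strand) or the GAS core TTCNNNGAA in capitals. The first 2 belong to the ubiquitin-like modifier ISG15 and to IFIT1, which binds foreign RNA. In ISG15 (chr1:1013354-1013429, plus strand), 2 cores that overlap began 113 and 107 bases before the start, within an intron of a longer GENCODE transcript. In IFIT1 (chr10:89392477-89392559, plus strand), the cores began 116 and 103 bases before the start, and the last 14 bases of the stretch lie in an annotated exon.
ISG15: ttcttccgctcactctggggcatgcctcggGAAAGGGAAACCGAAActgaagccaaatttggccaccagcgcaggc
IFIT1: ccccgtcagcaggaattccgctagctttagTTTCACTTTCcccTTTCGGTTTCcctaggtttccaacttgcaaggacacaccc

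Another 3 stretches belong to genes that rose with each treatment or with the combination. IFIT3 (chr10:89327811-89327914, plus strand, intronic in a longer GENCODE transcript) and IFI6 (chr1:27672246-27672378, minus strand, outside the gene model) each held several cores, and IFI44 (chr1:78649741-78649788, plus strand, outside the gene model) held 1 core, which began 18 bases before the start.
IFIT3: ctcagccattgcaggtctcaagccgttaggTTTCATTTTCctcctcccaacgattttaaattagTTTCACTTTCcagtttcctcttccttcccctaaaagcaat
IFI6: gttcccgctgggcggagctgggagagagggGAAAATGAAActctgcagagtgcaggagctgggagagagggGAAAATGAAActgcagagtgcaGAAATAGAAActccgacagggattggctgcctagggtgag
IFI44: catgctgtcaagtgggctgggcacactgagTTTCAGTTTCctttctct

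The last 4 belong to genes that differed from these in their pattern across the drugs. They are LGALS3BP (chr17:78979942-78980011, minus strand, with 6 bases in an annotated exon), OAS3 (chr12:112938321-112938350, plus strand, within an exon of longer transcripts), ISG20 (chr15:88638937-88638966, plus strand, with 14 bases in an exon of other transcripts) and the transcription factor IRF1 (chr5:132490859-132490927, minus strand, intronic in a longer transcript), whose window held a GAS core and no ISRE core. The OAS3 window held a further ISRE core, not shown, that began 12 bases before the start.
LGALS3BP: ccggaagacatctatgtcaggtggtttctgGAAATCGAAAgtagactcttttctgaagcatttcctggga
OAS3: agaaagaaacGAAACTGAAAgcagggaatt
ISG20: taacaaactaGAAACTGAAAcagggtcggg
IRF1: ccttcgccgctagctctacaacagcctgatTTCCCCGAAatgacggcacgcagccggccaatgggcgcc

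In windows of 300 bases, from 250 bases before to 50 bases after each start, the ISRE core was present in 23 of the 35 members with a window (65.7%), against 4.38% of the 27305 genes with one. The GAS core was present in 11 of the 35 (31.4%), against 9.38% of those genes. Both motifs were searched on both strands, and a gene counted once if any of its windows held the core. Windows on chr8, which holds no member, were not counted. Among the 12 members with a window that passed the fold limit against vehicle (below), 10 held an ISRE core, and among the other 23 members with a window, 13 did. The core was present in ISG20, which was lower in the treated cells, and was not found in the windows of OAS1 and IRF1, which were higher. These matches are a description of the letters in the windows. GBP2, IFIT2, IFITM2, IRF7, MB21D1, MX2, OAS2, OASL, TMEM173, TRIM22 and USP18 had no window.

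The libraries held between 3245273 and 7184420 counts after 2 days and between 4967931 and 19684208 after 7 days, with olaparib replicate 1 the lowest of the later set. Counts were compared by the quasi-likelihood method of edgeR, p-values were adjusted over all genes tested by the Benjamini-Hochberg method, and "rose" and "fell" are used for an adjusted p under 0.05. The fold limit was 1.5-fold at 2 days and 2-fold at 7 days. Levels are given in FPKM, the deposited values of fragments per kilobase of gene scaled to the depth of the library. Of the 8 prostate epithelial markers all were present, with a summed level of 2230 to 2560 FPKM at 2 days, 4270 to 4340 in 7-day vehicle and 2700 to 3120 in the 7-day treated groups, a fall whose part in the results below was not tested. The 8 leukocyte markers summed to at most 0.707 FPKM, 4 endothelial markers to at most 0.754 FPKM and 6 fibroblast markers to between 1.39 and 2.63 FPKM. By their library numbers, the 7-day vehicle and VIC-1911 libraries form 1 unbroken run and the olaparib and combination libraries another. The labels do not say what separates these runs, and the effect of olaparib or of the combination against vehicle or VIC-1911 cannot be told apart from them. The VIC-1911 effect alone, and the step from olaparib to the combination, each lie within 1 run.

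Many of the members were scarce in vehicle-treated cells. At 7 days, 36 of the 46 had at least 10 counts in at least 3 of the 12 libraries and were tested, and 7 of these (IFIT1, IFIT2, IFIT3, OAS1, OASL, IFI44 and SAMD9) had no vehicle library with 10 counts. TRIM22, GBP2, IFITM1 and TMEM173 had 1 vehicle library with 10 counts, and IRF1 and CMPK2 had 2. None of these members could pass without treated libraries, and the 7 with no such vehicle library had to differ. This is why counts over all 46 are given beside those that passed. At 2 days, 24 were tested. Of these, MX1 and GBP2 had 2 vehicle libraries with 10 counts and IRF1 had 1, so they also needed treated libraries. The members highest in 7-day vehicle cells per unit of length were IFITM3 with 34.5 to 44.6 FPKM, ADAR with 30.4 to 32.5 FPKM and ISG15 with 29.0 to 30.2 FPKM, in that order and without overlap. IFITM2 followed at 13.0 to 19.1 FPKM, and IFI6 at 7.28 to 9.75 FPKM, which overlapped STAT2 (7.75 to 8.35 FPKM) and IFI35 (6.80 to 7.47 FPKM).

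After 7 days, 11 members rose at least 2-fold with VIC-1911, 10 with olaparib and 14 with the combination, where 3.46%, 3.63% and 4.55% of the 14409 genes tested did so. The genes past this limit were mainly IFIT and OAS family effectors, IFI44, TRIM22, GBP2 and SAMD9, with IRF1 past it with olaparib and in the combination, and LGALS3BP, DDX60 and ISG15 past it in the combination. All 3 counts include the 7 members given above with no vehicle library at 10 counts. Only OAS3 with VIC-1911, and ISG15, LGALS3BP and DDX60 in the combination, could pass the filter on vehicle libraries alone. The other members past the limit needed treated libraries, so the comparison of these counts with the shares of all genes is not even. The olaparib count was 6 when the compared groups were fitted alone. In bulk RNA, a change in the number of cells that express a gene and a change in the RNA per cell cannot be told apart. At any fold, 17, 18 and 19 members rose, where 26.7%, 28.1% and 28.6% of genes did, and 4, 3 and 3 fell, where 25.7%, 25.9% and 28% did. IFI35 was among those that fell in all 3, joined by ISG20 in all 3, by IRF7 in the single drugs, by STAT2 with VIC-1911 and by IFIT5 in the combination. One set of 3 vehicle libraries serves all 3 comparisons, so their values are set side by side and not counted as separate evidence.

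With genes kept by a mean of at least 10 counts over all 12 libraries, 10, 9 and 13 of 34 members rose at least 2-fold with VIC-1911, olaparib and the combination, where 3.24%, 3.17% and 3.93% of genes did, and 1, 1 and 0 fell as far, where 3.13%, 3.24% and 3.68% did. Treated libraries can supply that mean too, so IFI44, IFIT1, IFIT2, IFIT3, OAS1 and OASL still entered through the groups where they were high. So did GBP2, TRIM22 and IFITM1, whose 16, 23 and 23 counts over the 3 vehicle libraries fall short of a mean of 10. With no filter, 36, 31 and 36 of the 46 members had a log2 fold change above 0, with medians of 0.32, 0.31 and 0.61, against a median of 0.00 over all genes in each. In 20, 20 and 22 of the 46, all 3 treated libraries lay above all 3 vehicle libraries, where 21.2%, 22% and 22.4% of the 21276 genes did, and in 5, 5 and 2 they all lay below, where 21%, 20.7% and 21.2% did.

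**Figure D1:**
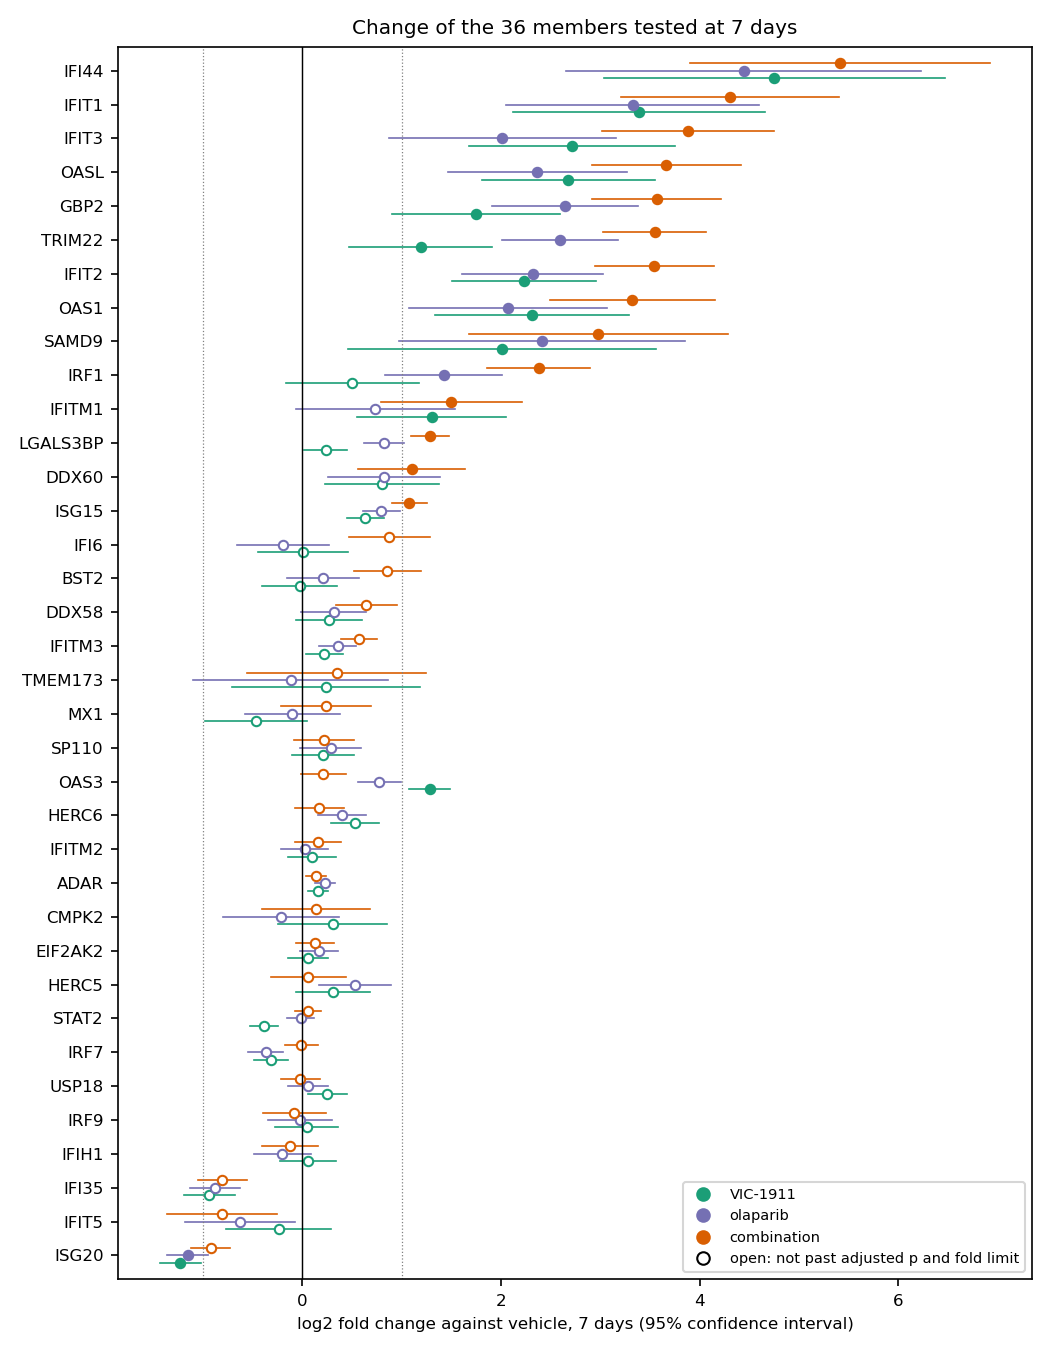
Log2 fold change against vehicle at 7 days (x axis, with 95% confidence interval) for the 36 members tested (y axis, ordered by the combination), for VIC-1911, olaparib and the combination, with filled points for genes past the adjusted p and the 2-fold limit. IFI44, IFIT1 and IFIT3 lie farthest to the right in the combination, and ISG20 is the member farthest to the left, at -1.23 with VIC-1911.

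Among the RNA-binding effectors, the IFIT genes on chromosome 10 showed the largest contrast between neighbours. IFIT1 stood at 0.0111, 0.0373 and 0.0479 FPKM in vehicle, 0.351, 0.132 and 0.487 with VIC-1911, 0.452, 0.277 and 0.296 with olaparib, and 0.560, 0.308 and 0.914 in the combination. All 9 treated libraries lay above the vehicle libraries, and the treated groups overlapped one another. The log2 fold change was 3.39 ± 0.62 (SE, adjusted p = 3.34e-05) with VIC-1911, 3.33 ± 0.62 (adjusted p = 4.55e-05) with olaparib and 4.31 ± 0.54 (adjusted p = 6.1e-08) in the combination. These values rest on 7 counts over the 3 vehicle libraries, and on 77, 79 and 169 in the treated groups.

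IFIT2, a related RNA-binding protein, was tight in vehicle and with VIC-1911 and spread more in the other groups. Its level was 0.105, 0.101 and 0.0973 FPKM in vehicle, 0.498, 0.534 and 0.473 with VIC-1911, 0.612, 0.414 and 0.590 with olaparib, and 1.24, 0.870 and 1.47 in the combination. Every combination library was above every library of either single drug, and every single-drug library was above vehicle. The change against vehicle was 4.69-fold, 4.99-fold and 11.7-fold, with adjusted p of 4.51e-06, 1.76e-06 and 1.77e-11. IFIT2 was also 2.34-fold higher in the combination than with olaparib (adjusted p = 0.00016) and 2.49-fold higher than with VIC-1911 (adjusted p = 9.85e-06).

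IFIT3 stood at 0.0553, 0.0621 and 0.0399 FPKM in vehicle, 0.418, 0.351 and 0.406 with VIC-1911, 0.323, 0.286 and 0.164 with olaparib, and 0.932, 0.466 and 1.10 in the combination. The combination lay above both single drugs in all its libraries. The log2 fold change against vehicle was 2.72 ± 0.51, 2.02 ± 0.56 and 3.88 ± 0.42 (adjusted p = 4.54e-05, 0.00314 and 5.36e-09). IFIT5, the fourth gene of the cluster, did not follow these 3. It fell in the combination by 0.81 ± 0.27 on the log2 scale (adjusted p = 0.0121), with 0.269, 0.147 and 0.374 FPKM against 0.376, 0.579 and 0.450 in vehicle, the highest combination library lying just under the lowest vehicle library. Parts of IFIT2 and IFIT3 exons (1.5% and 1.86% of their bases) overlap LIPA on the other strand, whose own log2 change was 0.13, 0.02 and -0.01.

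The OAS genes make the messenger that activates RNase L, except for OASL, which lacks that activity. OAS1 stood at 0.0789, 0.133 and 0.171 FPKM in vehicle, 1.07, 0.375 and 0.529 with VIC-1911, 0.230, 0.454 and 0.665 with olaparib, and 1.40, 0.997 and 1.24 in the combination. All treated libraries were above vehicle, with wide spread within each single drug. On the log2 scale OAS1 rose by 2.31 ± 0.48, 2.07 ± 0.49 and 3.32 ± 0.41 (adjusted p = 0.000155, 0.000667 and 4.57e-08).

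OASL stood at 0.201, 0.0845 and 0.109 FPKM in vehicle, 1.14, 0.896 and 0.721 with VIC-1911, 1.03, 0.845 and 0.485 with olaparib, and 1.77, 1.14 and 2.17 in the combination. The groups did not overlap with vehicle, and the lowest combination library was level with the highest VIC-1911 library. The change was 6.39-fold, 5.16-fold and 12.7-fold (adjusted p = 4.47e-06, 4.22e-05 and 8.98e-10).

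OAS3 had a different order. It stood at 1.64, 1.33 and 1.21 FPKM in vehicle, 3.43, 3.60 and 3.64 with VIC-1911, 2.12, 2.78 and 2.31 with olaparib, and 1.54, 1.76 and 1.67 in the combination. The VIC-1911 libraries were the highest, the olaparib libraries lay between, and the combination overlapped vehicle. OAS3 rose with VIC-1911 by 1.28 ± 0.10 on the log2 scale (adjusted p = 9.5e-12) and with olaparib by 0.78 ± 0.11 (adjusted p = 4.12e-07). In the combination, the change was 0.21 ± 0.11 (adjusted p = 0.105, 95% confidence interval -0.01 to 0.44), and the adjusted p was 0.0225 without vehicle replicate 1. It was 1.48-fold lower in the combination than with olaparib (adjusted p = 0.000304) and 2.1-fold lower than with VIC-1911 (adjusted p = 3.26e-10). The third OAS gene of the cluster on chromosome 12, OAS2, had at most 9 counts in any library and was not tested.

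ISG20, an exonuclease that degrades single-stranded RNA, went the other way from most members. It stood at 6.0, 5.42 and 4.61 FPKM in vehicle, 2.44, 2.61 and 2.18 with VIC-1911, 2.40, 2.48 and 2.50 with olaparib, and 3.11, 2.91 and 2.61 in the combination. No treated library reached the lowest vehicle library. ISG20 fell by 1.23 ± 0.10, 1.15 ± 0.10 and 0.92 ± 0.10 on the log2 scale (adjusted p = 2.22e-11, 6.35e-11 and 2e-09), so that the combination passed the adjusted p but not the 2-fold limit. It was the 1 member that fell at least 2-fold with VIC-1911 and with olaparib, where 3.43% and 3.53% of genes did. In the combination 0 members fell that far, where 4% of genes did (also 0 at an unadjusted p under 0.05 and 0 with DESeq2).

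ADAR, which edits adenosine in double-stranded RNA, and the kinase PKR (EIF2AK2) changed little. ADAR rose by 0.15, 0.23 and 0.14 on the log2 scale (adjusted p = 0.00974, 0.000238 and 0.0165) with VIC-1911, olaparib and the combination. Its calls with VIC-1911 and in the combination were lost when single libraries were left out, with an adjusted p of 0.0848 and 0.114 without vehicle replicate 1. EIF2AK2 changed by 0.06, 0.17 and 0.13 (adjusted p = 0.641, 0.138 and 0.241). CMPK2, a nucleotide kinase, did not pass in any of the 3 comparisons (adjusted p = 0.357, 0.553 and 0.682).

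**Figure D2:**
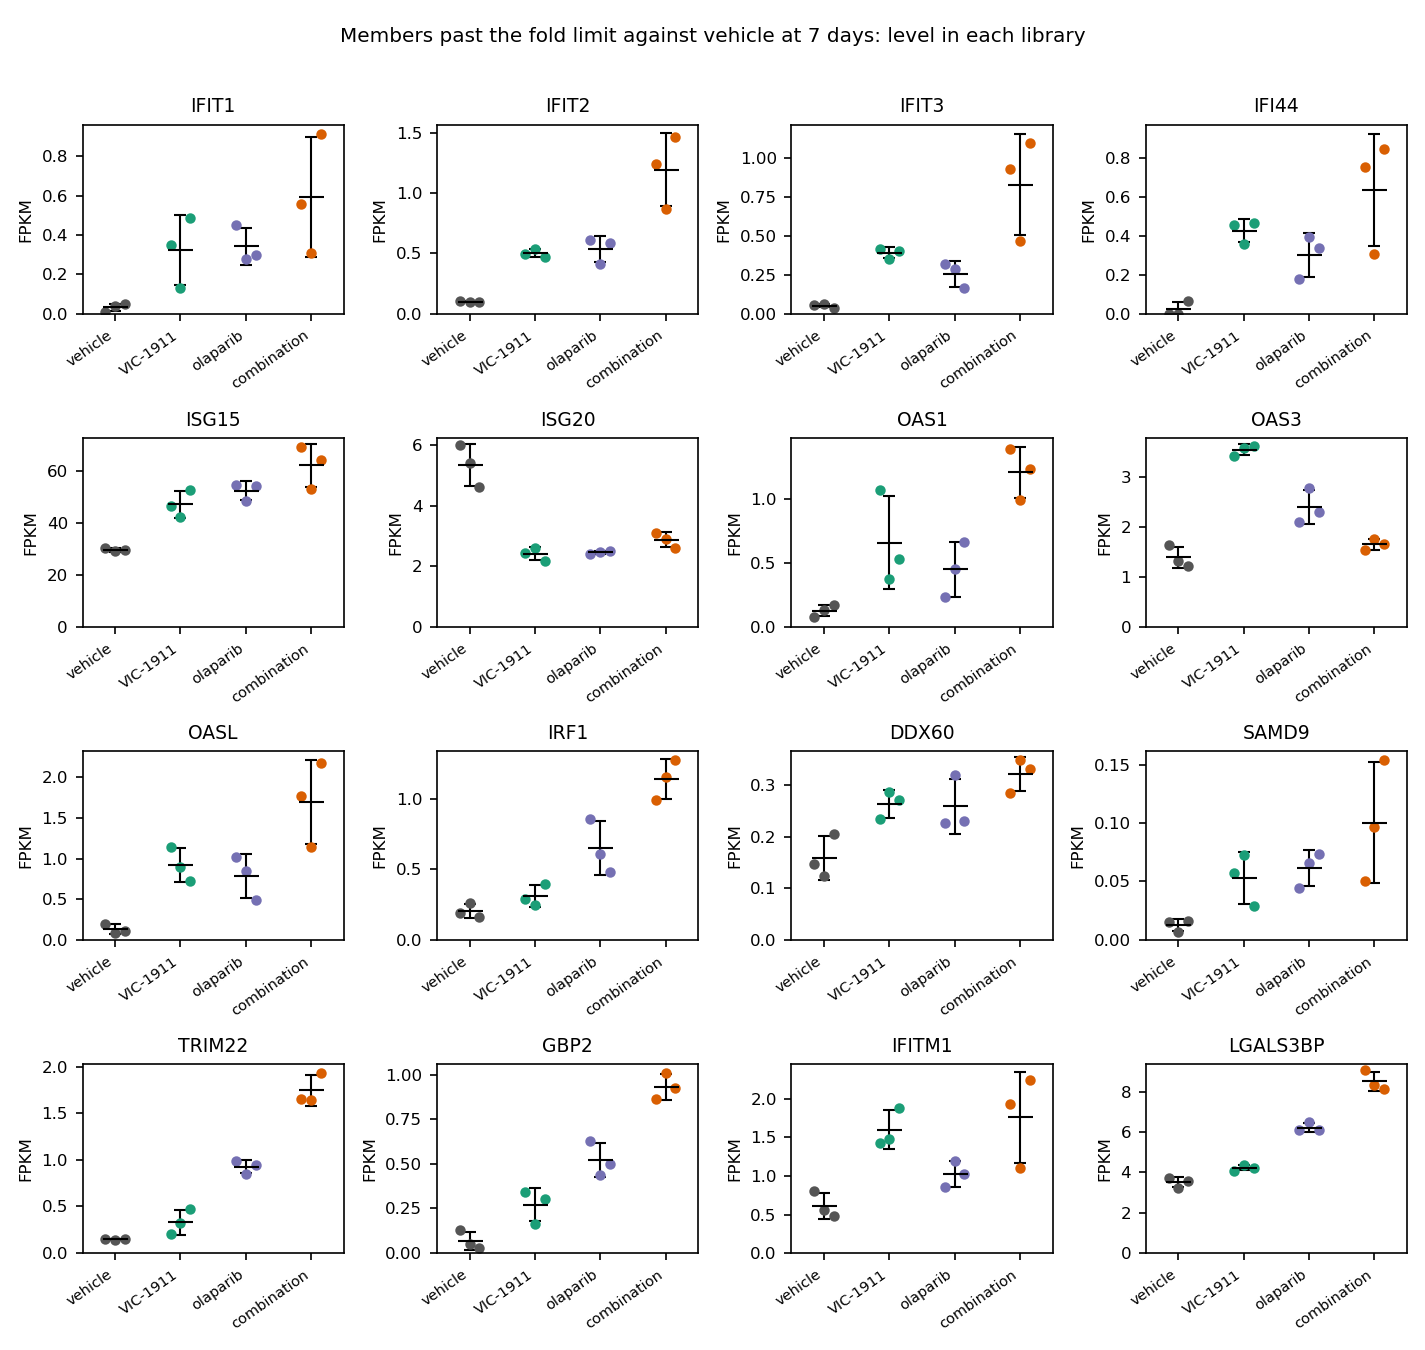
FPKM (y axis, from 0, with its own scale in each panel) in each 7-day library (points) for the 16 members past the fold limit against vehicle, with the group mean and SD as bars (n = 3) for vehicle, VIC-1911, olaparib and the combination. OAS3 is highest with VIC-1911, at 3.43 to 3.64 FPKM, ISG20 is highest in vehicle, at 4.61 to 6.0 FPKM, and TRIM22, GBP2, IRF1 and LGALS3BP step up from VIC-1911 to olaparib to the combination.

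Among the other induced genes, IFI44 had the largest fitted change. Its level was 0, 0 and 0.0657 FPKM in vehicle, 0.458, 0.361 and 0.464 with VIC-1911, 0.177, 0.393 and 0.338 with olaparib, and 0.754, 0.306 and 0.845 in the combination. One count was found over the 3 vehicle libraries, against 36, 32 and 67 in the treated groups. The ratio of counts per total was 36.8 (95% exact interval 6.2 to 1490) with VIC-1911, 30.3 (5.06 to 1230) with olaparib and 60.3 (10.5 to 2420) in the combination, intervals that cover counting error only. The adjusted p was 2.07e-05, 8.56e-05 and 3.1e-07, and the fitted log2 values of 4.75, 4.44 and 5.42 depend on how the fit treats counts near 0.

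IFI6, a mitochondrial protein that opposes apoptosis, rose in the combination and in neither single drug. It stood at 8.57, 7.28 and 9.75 FPKM in vehicle, 10.4, 7.38 and 8.39 with VIC-1911, 7.81, 6.93 and 7.51 with olaparib, and 18.0, 7.30 and 19.2 in the combination. Combination replicate 2 was within the vehicle range, and replicates 1 and 3 were near each other and above every other library. Its log2 changes were 0.01 ± 0.22, -0.20 ± 0.23 and 0.88 ± 0.20 (adjusted p = 0.97, 0.488 and 0.000394), and 1.16 for the combination without replicate 2. On log2(FPKM + 0.1) with limma the adjusted p of the combination was 0.0528. IFI35 fell with all 3 treatments, by 0.93, 0.88 and 0.81 on the log2 scale (adjusted p = 2.93e-07, 6.72e-07 and 1.46e-06). SP110 did not pass in any of them (adjusted p = 0.248, 0.109 and 0.216).

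Combination replicate 2 was the lowest of its group for 21 of the 36 members tested (58.3%), against 36% of the 14403 genes with FPKM values. Without it, 15 members rose at least 2-fold in the combination in place of 14, and 18 rose at any fold in place of 19. Its part in the differences among members was not tested.

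In the ISG15 system, the modifier itself rose with every treatment. ISG15 stood at 30.2, 29.0 and 29.4 FPKM in vehicle, 46.5, 42.3 and 52.6 with VIC-1911, 54.6, 48.2 and 54.1 with olaparib, and 69.2, 53.0 and 64.2 in the combination. All treated libraries were above vehicle, the single drugs overlapped, and the lowest combination library fell within the olaparib range. The change was 1.55-fold, 1.74-fold and 2.11-fold (adjusted p = 9.94e-07, 1.63e-08 and 1.16e-11), so that the 2-fold limit was passed in the combination.

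The ligases and the protease of the ISG15 system did not rise in the combination. HERC6 stood at 1.57 to 2.12 FPKM in vehicle, 2.74 to 2.83 with VIC-1911, 2.24 to 2.54 with olaparib and 1.87 to 2.34 in the combination. It rose with VIC-1911 by 0.53 and with olaparib by 0.40 on the log2 scale (adjusted p = 0.000341 and 0.00574) and changed by 0.17 in the combination (adjusted p = 0.227). HERC5, the human ISG15 ligase, stood at 0.743, 0.877 and 0.773 FPKM in vehicle and 1.17, 1.13 and 1.23 with olaparib, and rose there by 0.53 (adjusted p = 0.0127, and 0.066 without vehicle replicate 1). USP18, which removes ISG15 and restrains interferon receptor signaling, rose with VIC-1911 by 0.25 (adjusted p = 0.0285, but 0.0752 with DESeq2) and changed by -0.02 in the combination (adjusted p = 0.879). USP18 has a near-identical copy, USP41, and the handling of shared reads is not stated.

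Among the restriction factors, TRIM22 and GBP2 rose stepwise from VIC-1911 to olaparib to the combination. TRIM22, a ubiquitin ligase, stood at 0.152, 0.143 and 0.147 FPKM in vehicle, 0.205, 0.322 and 0.470 with VIC-1911, 0.988, 0.848 and 0.944 with olaparib, and 1.66, 1.65 and 1.94 in the combination. No group overlapped another. TRIM22 rose on the log2 scale by 1.19 ± 0.35, 2.60 ± 0.29 and 3.55 ± 0.25 (adjusted p = 0.0054, 8.14e-09 and 5.92e-13), and with VIC-1911 the adjusted p was 0.0979 without VIC-1911 replicate 3. TRIM22 was 2.64-fold higher with olaparib than with VIC-1911 (adjusted p = 6.29e-05).

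GBP2, a guanylate-binding GTPase, stood at 0.127, 0.0533 and 0.0274 FPKM in vehicle, 0.344, 0.166 and 0.303 with VIC-1911, 0.628, 0.437 and 0.499 with olaparib, and 0.861, 1.01 and 0.924 in the combination. These groups too did not overlap. The change against vehicle was 3.36-fold, 6.27-fold and 11.8-fold (adjusted p = 0.000694, 3.44e-07 and 7.39e-11). Exons of GBP2 share 8.6% of their bases with GBP7 on the same strand.

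SAMD9, an antiviral protein, stood at 0.0153, 0.00643 and 0.0165 FPKM in vehicle, 0.0577, 0.0726 and 0.0292 with VIC-1911, 0.0445, 0.0659 and 0.0738 with olaparib, and 0.0506, 0.0964 and 0.154 in the combination. All treated libraries were above vehicle and the treated groups overlapped. SAMD9 rose by 2.01 ± 0.76, 2.41 ± 0.70 and 2.98 ± 0.64 on the log2 scale (adjusted p = 0.0272, 0.00476 and 0.000218), on 4 counts in vehicle. With VIC-1911 the call was lost with DESeq2 (adjusted p = 0.0503) and when vehicle replicate 2 was left out (adjusted p = 0.138).

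IFITM1, a membrane protein that blocks virus entry, stood at 0.802, 0.553 and 0.474 FPKM in vehicle, 1.43, 1.48 and 1.89 with VIC-1911, 0.852, 1.20 and 1.03 with olaparib, and 1.94, 1.11 and 2.24 in the combination. The treated libraries were above vehicle, and the combination spread over both single drugs. It rose with VIC-1911 by 1.30 ± 0.37 and in the combination by 1.5 ± 0.35 on the log2 scale (adjusted p = 0.00357 and 0.000528), and with olaparib changed by 0.73 ± 0.39 (adjusted p = 0.116). Its neighbours on chromosome 11 differed from it: IFITM3 rose by 0.22, 0.36 and 0.57 (adjusted p = 0.043, 0.00145 and 2.17e-06), and IFITM2 by 0.10, 0.02 and 0.16 did not pass (adjusted p = 0.495, 0.884 and 0.238). The 3 IFITM genes are close copies, and reads could be split between them.

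BST2 (tetherin), which holds virus particles at the cell surface, rose in the combination and in neither single drug. It stood at 3.44, 2.68 and 2.78 FPKM in vehicle, 2.48, 2.87 and 3.54 with VIC-1911, 3.75, 3.59 and 3.32 with olaparib, and 6.09, 4.86 and 5.18 in the combination. All combination libraries lay above all others. Its log2 changes were -0.03 ± 0.18, 0.21 ± 0.18 and 0.86 ± 0.16 (adjusted p = 0.916, 0.34 and 4.79e-05). MX1, an antiviral GTPase, did not pass against vehicle (adjusted p = 0.119, 0.751 and 0.365). Exons of MX1 share 3.12% of their bases with TMPRSS2 on the other strand, which was present at 254 to 456 FPKM at 7 days and fell by 0.55, 0.68 and 0.76 on the log2 scale, and the strand setting of the counts is not stated.

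Of the transcription factors, only IRF1 rose. IRF1 stood at 0.191, 0.260 and 0.159 FPKM in vehicle, 0.289, 0.245 and 0.395 with VIC-1911, 0.859, 0.610 and 0.482 with olaparib, and 0.989, 1.15 and 1.27 in the combination. VIC-1911 overlapped vehicle, olaparib lay above both, and the combination lay above olaparib. IRF1 changed on the log2 scale by 0.50 ± 0.33, 1.43 ± 0.29 and 2.38 ± 0.25 (adjusted p = 0.202, 0.000117 and 3.12e-09). With olaparib it was 1.89-fold higher than with VIC-1911 (adjusted p = 0.0119, and 0.0665 without VIC-1911 replicate 2).

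STAT2, IRF7 and IRF9 did not rise. STAT2 stood at 8.29, 8.35 and 7.75 FPKM in vehicle and at 6.57, 6.47 and 6.34 with VIC-1911, with no overlap, and fell with VIC-1911 by 0.39 ± 0.07 on the log2 scale (adjusted p = 1.74e-05). With olaparib and the combination STAT2 changed by -0.01 and 0.06 (adjusted p = 0.882 and 0.44). IRF7 fell with VIC-1911 by 0.32 and with olaparib by 0.37 (adjusted p = 0.00248 and 0.000581) and changed by -0.01 in the combination (adjusted p = 0.937). IRF9 did not pass in any comparison, with log2 changes of 0.04, -0.02 and -0.08 (adjusted p = 0.831, 0.914 and 0.682).

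The sensors were scarce or changed little. DDX58 (RIG-I) stood at 0.770, 0.834 and 0.929 FPKM in vehicle and 1.31, 1.13 and 1.44 in the combination, with no overlap, and rose in the combination by 0.65 ± 0.15 on the log2 scale (adjusted p = 0.000585). With VIC-1911 and olaparib DDX58 changed by 0.27 and 0.31 (adjusted p = 0.169 and 0.0996). IFIH1 (MDA5) stood between 1.28 and 1.84 FPKM in all 7-day libraries and changed by 0.06, -0.20 and -0.12 (adjusted p = 0.734, 0.233 and 0.458, with 95% confidence intervals within -0.49 and 0.34). DDX60, a helicase linked to RIG-I, stood at 0.146, 0.123 and 0.205 FPKM in vehicle, 0.234, 0.287 and 0.272 with VIC-1911, 0.226, 0.320 and 0.231 with olaparib, and 0.286, 0.348 and 0.331 in the combination. All treated libraries were above vehicle, and DDX60 rose by 0.80, 0.83 and 1.10 (adjusted p = 0.0167, 0.0128 and 0.000692). The single-drug calls of DDX60 were lost with DESeq2 (adjusted p = 0.0543 and 0.0505) and without vehicle replicate 2 (adjusted p = 0.123 and 0.101).

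The DNA-sensing pair was at the edge of detection. MB21D1 (cGAS) had 0 counts in 16 of the 18 libraries, 3 in 1 vehicle library and 2 in 1 combination library at 7 days. TMEM173 (STING) had 3 to 19 counts per 7-day library and 0.0898 to 0.374 FPKM, and its log2 changes of 0.24, -0.12 and 0.35 did not pass (adjusted p = 0.682, 0.857 and 0.521), with a 95% confidence interval in the combination of -0.56 to 1.25. That interval includes a 2-fold rise of TMEM173 and no 2-fold fall.

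Of the secreted products, LGALS3BP, a glycoprotein that binds galectin-3, was abundant enough for a precise comparison. It stood at 3.72, 3.24 and 3.56 FPKM in vehicle, 4.09, 4.35 and 4.23 with VIC-1911, 6.08, 6.48 and 6.11 with olaparib, and 9.06, 8.34 and 8.14 in the combination. No group overlapped another. The log2 fold change was 0.23 ± 0.10, 0.82 ± 0.10 and 1.29 ± 0.09 (adjusted p = 0.0588, 2.89e-08 and 6.18e-13).

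The chemokine CXCL10 had 1 count in vehicle, 4 with VIC-1911, 5 with olaparib and 25 in the combination. Its ratio to vehicle in the combination was 22.5 (95% exact interval 3.68 to 924), and those of the single drugs had intervals that included 1. RSAD2 (viperin) had 1, 7, 10 and 24 counts in the same groups, a ratio of 21.6 (3.52 to 889) in the combination, and OAS2 had 3, 6, 7 and 19, a ratio of 5.7 (1.68 to 30.1). XAF1 had 0 counts in vehicle and in both single drugs and 6 in the combination, which is at least 1.8-fold higher than a floor of 3 counts over the vehicle group. These 4 genes were not tested in the fit, and the intervals cover counting error only. RSAD2 shares 6.2% of its exon bases with CMPK2 on the other strand. IFI44L, SAMD9L and MX2 had at most 4 counts in any library, EPSTI1 at most 8 and IFI27 at most 12.

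The question whether VIC-1911 adds to olaparib was addressed by the combination against olaparib, within 1 run of library numbers. In this comparison 13 of 36 members tested rose (IFIT1, IFIT2, IFIT3, OAS1, OASL, ISG15, IFI6, GBP2, TRIM22, BST2, IRF1, IRF7 and LGALS3BP) and 1 fell (OAS3), where 4.55% and 6.95% of the genes tested did. Of these, IFIT1, IFIT2, IFIT3, OAS1 and OASL had entered the fit only through treated libraries, where they were high. GBP2 and TRIM22, with 1 vehicle library at 10 counts, and IRF1, with 2, also needed treated libraries to enter. With no filter, 35 of the 46 members had a log2 fold change above 0, with a median of 0.342, where 47.3% of all genes were above 0. The largest rises were 3.65-fold for IFIT3 (adjusted p = 0.000124), 2.46-fold for OASL (adjusted p = 0.00094) and 2.39-fold for OAS1 (adjusted p = 0.00451). IFI6 was 2.1-fold and LGALS3BP 1.38-fold higher (adjusted p = 0.000506 and 0.000303). The calls of IFIT1 (adjusted p = 0.047, and 0.391 with DESeq2) and ISG15 (adjusted p = 0.0208, and 0.139 with limma) were not stable. IRF7 was 1.28-fold higher (adjusted p = 0.00438) after it had fallen with olaparib. On log2(FPKM + 0.1) with limma, 8 members rose in place of 13.

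Against VIC-1911, 18 members were higher in the combination and 3 lower (OAS3, USP18 and HERC6), where 20.7% and 22.2% of genes were. IFIT1, IFIT2, IFIT3, OAS1 and OASL, which entered only through treated libraries, were among the higher members here too. So were GBP2, TRIM22 and IRF1, which could not enter on their vehicle libraries alone. With no filter, 33 of the 46 had a log2 fold change above 0, where 49.8% of all genes did. The largest rises were 5.12-fold for TRIM22, 3.67-fold for IRF1 and 3.53-fold for GBP2 (adjusted p = 2.81e-10, 1.61e-07 and 5.32e-07). STAT2 was 1.36-fold higher (adjusted p = 2.43e-06) and MX1 1.63-fold higher (adjusted p = 0.0159), the latter with the overlap with TMPRSS2 given above.

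Between the single drugs, 5 members were higher with olaparib than with VIC-1911 (GBP2, TRIM22, STAT2, LGALS3BP and IRF1) and 1 was lower (OAS3, by 0.51 ± 0.09 on the log2 scale, adjusted p = 0.000168), where 11.1% and 12.3% of genes were. Of the 5, GBP2, TRIM22 and IRF1 needed treated libraries to enter the fit. IFIT1, IFIT2 and OASL differed by -0.07, 0.09 and -0.31 between the drugs (adjusted p = 0.925, 0.843 and 0.499).

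The interaction compares the combination with the sum of the single-drug changes on the log2 scale. By the adjusted p it was called below 0 for 9 members and above 0 for 6, where 22.9% and 21% of genes were. OAS3 had the most precise departure, with a combination 1.85 ± 0.14 below the sum (adjusted p = 1.14e-11). IFI44 and IFIT1 were 3.78 ± 1.03 and 2.41 ± 0.76 below it (adjusted p = 0.00347 and 0.0106), and both start from vehicle groups with 1 and 7 counts. HERC5, HERC6, OASL, ISG15, USP18 and ADAR were also below the sum, and OASL starts from 14 vehicle counts. IFI44, IFIT1 and OASL entered the fit with no vehicle library at 10 counts. Vehicle enters this contrast with a plus sign, so selection for a low vehicle group moves it below 0. ISG20 was 1.46 ± 0.15 above it (adjusted p = 2.56e-09), with a smaller fall in the combination than with either drug alone, and IFI35 was 1.01 ± 0.18 above it (adjusted p = 4.34e-05) in the same way. IFI6, BST2, IRF7 and STAT2 were above it by 1.06, 0.68, 0.67 and 0.46 (adjusted p = 0.00485, 0.0247, 3.12e-05 and 0.000178), and neither IFI6 nor BST2 passed the test with a single drug. For IFIT3, GBP2, TRIM22 and IRF1, the departure did not pass (-0.85, -0.83, -0.24 and 0.45, adjusted p = 0.302, 0.163, 0.652 and 0.379).

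**Figure D3:**
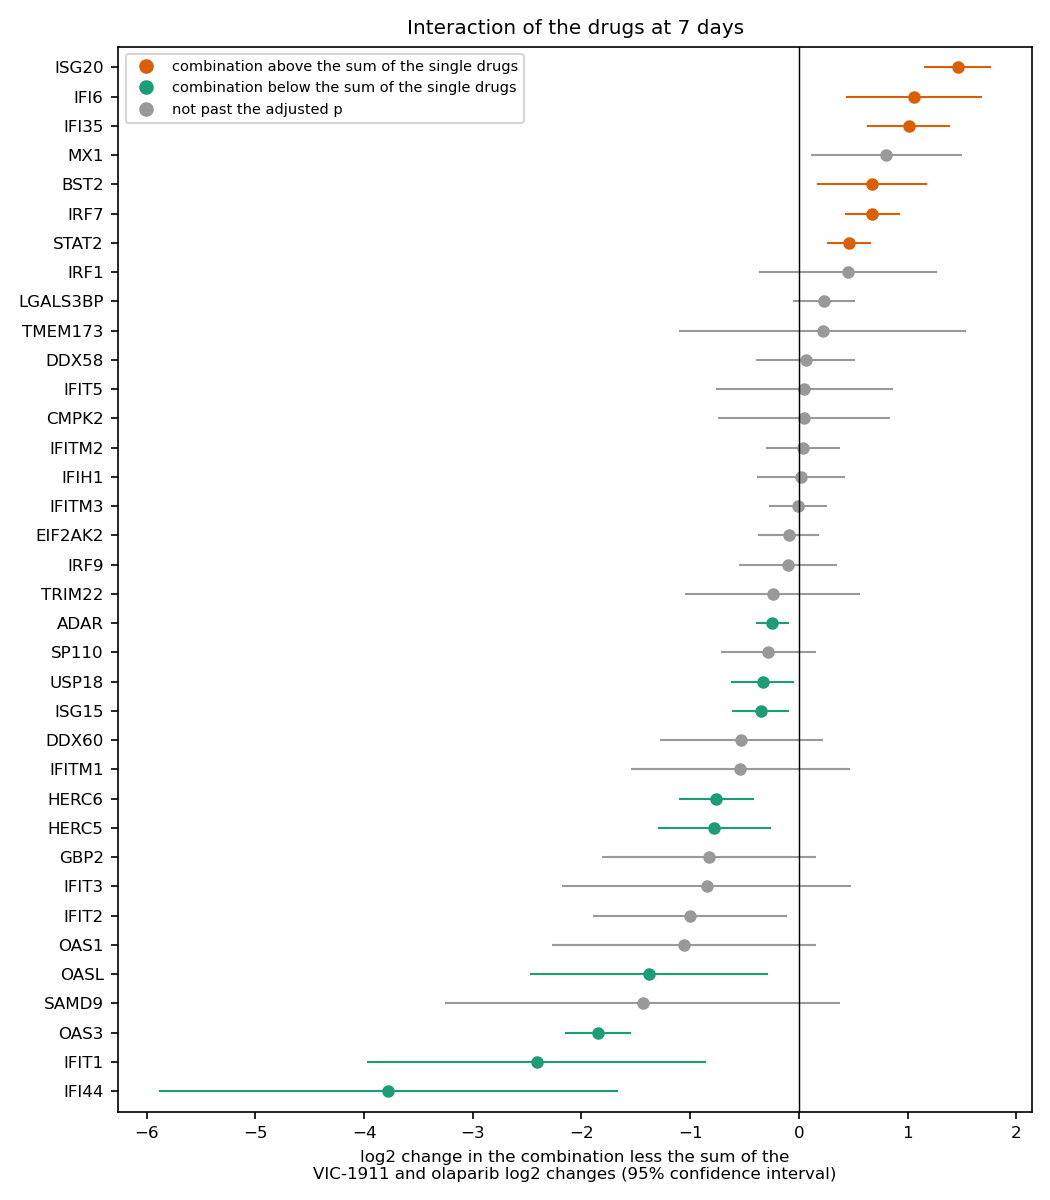
Log2 change in the combination less the sum of the VIC-1911 and olaparib log2 changes against vehicle (x axis, with 95% confidence interval) for the 36 members tested at 7 days (y axis). ISG20 lies at 1.46 at the top, and OAS3, IFIT1 and IFI44 lie at -1.85, -2.41 and -3.78 at the bottom.

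After 2 days of VIC-1911, 2 of the 24 members tested rose, ISG15 and GBP2, where 7.5% of the 12241 genes did, and 0 fell, where 7.19% did. By the unadjusted p under 0.05, 2 were lower (OAS3 and IFI35), and with DESeq2 0 fell. OAS3 had a log2 change of -0.28 ± 0.10 (adjusted p = 0.0508) and was called lower in some alternatives, with an adjusted p of 0.0226 without vehicle replicate 2. ISG15 stood at 30.9, 30.5 and 28.8 FPKM in vehicle and 40.1, 41.7 and 40.2 with VIC-1911, without overlap. It rose 1.32-fold (adjusted p = 0.00424). GBP2 stood at 0.311, 0.474 and 0.396 FPKM in vehicle and 0.869, 1.15 and 0.849 with VIC-1911, again without overlap. It rose 2.34-fold (adjusted p = 0.00378) and was the 1 member past the 1.5-fold limit, where 0.825% of genes were, while 0 fell that far, where 1.33% did (0 also with DESeq2). The median log2 fold change of all 43 members with a count, with no filter, was -0.0043, against 0.000785 over all genes.

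**Figure D4:**
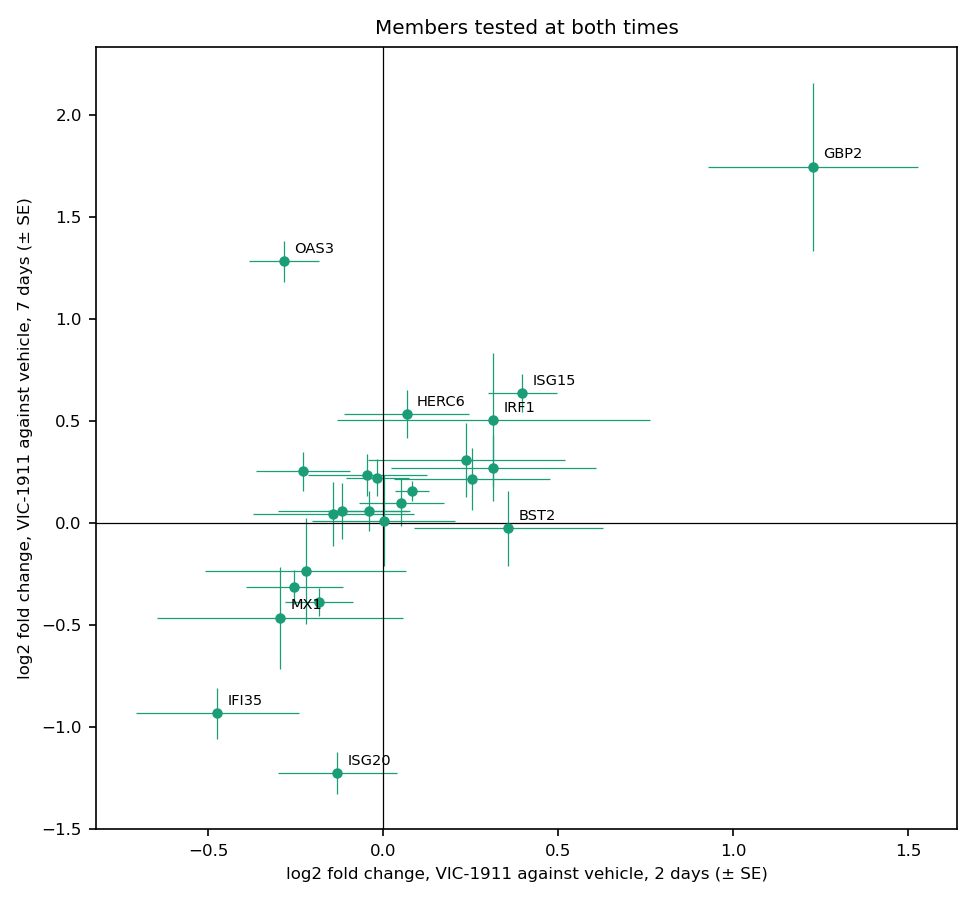
Log2 fold change of VIC-1911 against vehicle at 2 days (x axis) and at 7 days (y axis), each with its SE, for the 24 members tested at both times. GBP2 is high on both axes, at 1.23 and 1.75, while OAS3 lies at -0.28 and 1.28 and ISG20 at -0.13 and -1.23.

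The difference between the VIC-1911 effect at 7 days and that at 2 days was tested for 34 members, of which 5 were higher at 7 days and 1 lower, where 14.6% and 14.2% of the 13832 genes were. OAS3 differed by 1.55 ± 0.14 on the log2 scale (adjusted p = 1.7e-12), with 4.20, 3.56 and 4.54 FPKM in 2-day vehicle against 3.19, 3.04 and 3.38 with VIC-1911. The 2-day vehicle libraries were all above the 2-day VIC-1911 libraries, the reverse of the order at 7 days. ISG20 differed by -1.11 ± 0.20 (adjusted p = 2.31e-05). OAS1, OASL, DDX60 and USP18 were higher by 2.43, 3.05, 1.62 and 0.47 (adjusted p = 0.0114, 0.02, 0.0251 and 0.031). At 2 days, OAS1, OASL and DDX60 had at most 12, 4 and 10 counts in any library and were not tested in the 2-day fit. OASL entered the joint fit only through the 7-day VIC-1911 libraries, where it was high. OAS1 had at most 7 counts in a 2-day and 6 in a 7-day vehicle library, so it too entered only through VIC-1911 libraries. Time differs between these sets together with the vehicle libraries and the run of library numbers, and these cannot be told apart.

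The wider pathway was read from a list of 46 other genes, of which 30 were tested at 7 days. No ligand was tested: IFNB1, IFNA1, IFNA2 and IFNG had no row in either count table, and IFNE, IFNK, IFNL1, IFNL2 and IFNL3 had at most 2 counts in any library. Of the 30, 10 rose and 8 fell with VIC-1911, 11 and 6 with olaparib, and 14 and 6 in the combination, beside 26.7% and 25.7%, 28.1% and 25.9%, and 28.6% and 28% of all genes tested. At 2 days, 2 of 29 rose and 3 fell, beside 7.5% and 7.19%. IRF3 rose by 0.25, 0.36 and 0.49 (adjusted p = 0.00241, 3.57e-05 and 1.46e-07). TBK1 rose by 0.30, 0.35 and 0.29 (adjusted p = 0.000193, 3.08e-05 and 0.000279). MAVS did not pass, with log2 changes of -0.05, 0.09 and 0.02 (adjusted p = 0.417, 0.129 and 0.805).

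DNASE2, which digests DNA in lysosomes, was the gene of this list past the fold limit. It stood at 70.1, 63.6 and 64.7 FPKM in vehicle, 19.3, 21.9 and 20.1 with VIC-1911, 19.4 to 21.4 with olaparib, and 19.9, 19.2 and 17.3 in the combination. The treated groups overlapped one another far below vehicle. DNASE2 fell by 1.74, 1.74 and 1.82 on the log2 scale (adjusted p = 3.05e-20, 2.91e-20 and 4.49e-21), and by 0.49 after 2 days of VIC-1911 (adjusted p = 3.3e-06). JAK1, named after its values were seen because it is the kinase shared by the interferon receptors, stood between 0.509 and 1.55 FPKM in all 18 libraries. It fell with VIC-1911 at 7 days by 0.35 ± 0.14 on the log2 scale (adjusted p = 0.0378). With olaparib it changed by -0.03, and after 2 days of VIC-1911 by -0.20 (adjusted p = 0.868 and 0.685). JAK1 was not among the genes that fell in the combination.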

How the data were processed

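RNA was extracted from C4-2B cells, polyadenylated RNA was sequenced, and reads were trimmed with Trimmomatic and aligned to GRCh38 with STAR (version 2.6.0 in the submitters' processing notes). The deposited count tables hold the authors' whole-number counts per gene, not normalized, 1 column per library. The deposited FPKM values were computed by the authors with a script of their own. Within a gene, deposited FPKM and counts kept a fixed relation at 7 days but not for every gene at 2 days (158 genes, 1.52%, varied by over 10%), so all tests used counts. The strand setting and the handling of shared reads are not given in the sources used here.

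Genes that reached 10 counts in 3 or more libraries were scaled by TMM and fitted with edgeR 4.0.16 in R 4.3.3 (quasi-likelihood test, two-sided, all groups of a time in 1 fit, Benjamini-Hochberg adjustment over all genes tested). The 2-day and 7-day tables were fitted separately, and jointly over their 20258 shared genes for the difference between times. Single-gene counts near 0 were compared by exact intervals of the ratio of counts. Alternatives were upper-quartile scaling, library size alone, no filter, a filter on the mean, DESeq2 1.42.0, limma 3.58.1 on log2(FPKM + 0.1), the compared groups alone, a replicate block, and each library left out. The fits were checked on simulated data.

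Members past the adjusted p and the fold limit against vehicle in at least 1 comparison were described library by library, together with sensors, transcription factors and members that changed in the interaction or between times. Of the pathway list, those past the same limits were named, with IRF3, MAVS and TBK1, and 1 further gene is not reported here. Members and lists were chosen with earlier results of these data known. Gene positions and exon overlaps came from GENCODE on GRCh38, and promoter windows from RefSeq.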

Additional observations from a re-analysis of the deposited data

Results flagged for a closer look

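The effect of VIC-1911 on a member differed between cells with and without olaparib, by the test of the interaction itself, for 15 of 36 members at 7 days (9 below and 6 above the sum), where 22.9% of all genes tested were called below it and 21% above it, so the share of members was no higher than that of all genes. The combination lay below the sum of the single-drug log2 changes for IFI44 (-3.78), IFIT1 (-2.41), OAS3 (-1.85), OASL (-1.38), HERC5 (-0.78), HERC6 (-0.76), ISG15 (-0.35), USP18 (-0.33) and ADAR (-0.25). It lay above the sum for ISG20 (1.46), IFI6 (1.06), IFI35 (1.01), BST2 (0.68), IRF7 (0.67) and STAT2 (0.46).

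The effect of VIC-1911 differed between 7 days and 2 days, by the test of the difference itself, for 6 of 34 members (5 higher and 1 lower at 7 days), where 14.6% and 14.2% of all genes tested were called higher and lower. The log2 change was larger at 7 days for OASL (3.05), OAS1 (2.43), DDX60 (1.62), OAS3 (1.55) and USP18 (0.47), and lower for ISG20 (-1.11). OASL and OAS1 entered this fit only through VIC-1911 libraries.

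Several of these calls were not stable. USP18 in the interaction had an adjusted p of 0.121 with DESeq2, and BST2 and IFI6 had 0.0614 and 0.0684. Between times, OASL had an adjusted p of 0.31 without 2-day vehicle replicate 3, OAS1 had 0.0686 without 2-day vehicle replicate 2, and DDX60 and USP18 had 0.0543 and 0.068 with DESeq2.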

How the results depend on the processing

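Of 374 alternative values for the counts of members that changed, 356 were within 1.5 times the reported count. For VIC-1911 at 2 days, 1 member rose with DESeq2 and 0 past the fold limit (DESeq2 gave GBP2 no adjusted p), and 1 fell with upper-quartile scaling, with library size alone and with the replicate block. With olaparib, 6 members rose past the fold limit when the compared groups were fitted alone. On log2(FPKM + 0.1) with limma, 8 rose from olaparib to the combination, 2 were lower with olaparib than with VIC-1911, and 2 were lower at 7 than at 2 days. Between times, 3 were higher with the filter on the mean and 2 with DESeq2. Over 3716 alternatives for single genes, 117 lost the threshold, 27 gained it and 0 reversed.

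With each library left out in turn, 0 to 1 members fell with VIC-1911 at 2 days (1 without vehicle replicate 2) and 0 to 1 past the fold limit in the combination (1 without combination replicate 3). From olaparib to the combination 10 to 16 rose and 1 to 2 fell (2 without combination replicate 3). From VIC-1911 to olaparib 3 to 5 were higher (3 without VIC-1911 replicate 2). Between times 3 to 8 were higher, with 3 without 2-day vehicle replicate 2 or 7-day VIC-1911 replicate 1 and 8 without 7-day vehicle replicate 1.

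Same-numbered libraries deviated together only weakly (correlations from 0.00203 to 0.0504 at 2 days and from -0.0461 to 0.154 at 7 days). Libraries of different numbers gave -0.0304 to 0.0269 at 2 days and -0.154 to 0.142 at 7 days. The ranges overlap, so they cannot decide whether same-numbered libraries were set up together. With the replicate block, 8 members were below the sum in the interaction in place of 9, and 4 fell with olaparib in place of 3. Low counts limit IFI44, IFIT1, SAMD9, TMEM173, MB21D1 and the 10 members not tested at 7 days, and they limit OAS1, OASL and DDX60 at 2 days.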
